A study of Mus musculus with 10 samples.

Results

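The mouse ribosomal protein genes Rpl34, Rpl15, Rpsa and Rps3a1, and 3 processed copies of them, Rpl34-ps1, Rpsa-ps10 and Rps3a2, were followed through a study of Polr1a mutants. These 7 genes, of 14796 named genes in the table, were chosen by their own levels in these samples: ribosomal protein genes and copies that had been seen to differ between genotypes or between sets of samples. Their levels and differences are therefore given as a description, with no test. RNA sequencing of total RNA had been done on telencephalon, the part of the embryonic brain from which cortex and basal ganglia arise, in 10 mouse samples at embryonic day 12. The genotypes were wild type (5 samples), a null allele of Polr1a (2 samples) and a missense allele of Polr1a with the protein change C1559F (3 samples). RNA polymerase I, whose largest subunit is the product of Polr1a, makes the precursor of most ribosomal RNA. Wild types 1 and 2 and both null samples have titles that start with Polr_2048, and those of wild types 3, 4 and 5 and the 3 missense samples start with Polr_2138. The sources used here do not give the meaning of these title numbers, the zygosity of each sample, the mouse strain or shared litters, so a difference between samples of one title number and the other cannot be told apart from anything else that differs with it. Each mutant was set against the wild types of its own title number.

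The ribosome holds a single copy of most of its proteins, and in mammals each is usually made from a single active gene. Messenger RNAs of these genes have often been copied back into DNA and inserted elsewhere in the genome, which leaves processed pseudogenes: copies without introns that can be almost identical to the coding sequence of the active gene. A short sequencing read from such a gene can match the gene and several copies equally well, so the level listed for either depends on how reads were placed. The sources used here do not say how reads with several matches were counted. The proteins made by Rpl34 and Rpl15 belong to the large ribosomal subunit, and those made by Rpsa and Rps3a1 to the small subunit. Rpsa is also known as the laminin receptor gene.

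The closeness of gene and copy is shown by their sequences, taken from the GENCODE M21 transcripts of the GRCm38 assembly. The table of levels uses a later assembly, so no coordinates are given. In each pair, the active gene comes first and the copy second, 5′ to 3′, and capitals mark the bases that differ. Rpl34 lies on chromosome 3 and Rpl34-ps1 on chromosome 6. GENCODE M21 lists the copy as a processed pseudogene, while the RefSeq gene table lists it as protein coding. Over the whole coding sequence of 354 bases, Rpl34-ps1 differs from Rpl34 at 2 bases (99.44% identity), neither of which changes an amino acid among the 117 codons. The first 150 coding bases hold one of these.
Rpl34: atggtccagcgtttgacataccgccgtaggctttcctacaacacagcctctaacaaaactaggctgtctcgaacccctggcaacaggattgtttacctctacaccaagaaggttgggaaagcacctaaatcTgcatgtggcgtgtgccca
Rpl34-ps1: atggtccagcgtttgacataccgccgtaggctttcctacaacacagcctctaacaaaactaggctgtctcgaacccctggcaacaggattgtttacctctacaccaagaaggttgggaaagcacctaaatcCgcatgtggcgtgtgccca
Rpsa lies on chromosome 9 and Rpsa-ps10 on chromosome 3. They differ at 6 of 885 aligned bases (99.32% identity), and 1 of 295 codons differs in its amino acid. Coding bases 85 to 234 hold 2 of the differences.
Rpsa: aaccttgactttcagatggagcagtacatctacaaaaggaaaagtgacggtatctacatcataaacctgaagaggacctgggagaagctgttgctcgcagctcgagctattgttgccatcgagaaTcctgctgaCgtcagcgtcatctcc
Rpsa-ps10: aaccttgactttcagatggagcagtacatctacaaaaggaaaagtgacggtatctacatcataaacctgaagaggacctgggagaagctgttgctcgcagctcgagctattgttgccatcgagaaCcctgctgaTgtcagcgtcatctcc
Rps3a1 lies on chromosome 3 and Rps3a2 on chromosome 14. They differ at 4 of 792 aligned bases (99.49% identity), and 1 of 264 codons differs in its amino acid. Coding bases 511 to 660 hold 2 of the differences.
Rps3a1: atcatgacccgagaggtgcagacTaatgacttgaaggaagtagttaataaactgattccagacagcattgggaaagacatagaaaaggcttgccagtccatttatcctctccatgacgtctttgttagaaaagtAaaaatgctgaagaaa
Rps3a2: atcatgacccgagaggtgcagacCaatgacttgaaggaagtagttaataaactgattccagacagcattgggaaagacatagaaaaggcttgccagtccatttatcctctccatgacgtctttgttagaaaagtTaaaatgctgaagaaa
Rpl15 lies on chromosome 14. It has no copy among the 7 genes, but the table holds 2 further rows for copies of it, Gm10020 on chromosome 15, which RefSeq names Rpl15-ps6, and Rpl15-ps2 on chromosome 9. Gm10020 differs from Rpl15 at 2 of 612 aligned bases (99.67% identity), and 1 of 204 codons differs in its amino acid. Both differences lie in coding bases 141 to 217.
Rpl15: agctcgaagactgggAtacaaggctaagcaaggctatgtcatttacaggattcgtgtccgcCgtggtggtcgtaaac
Gm10020: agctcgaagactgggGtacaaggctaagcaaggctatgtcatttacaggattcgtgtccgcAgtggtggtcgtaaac

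In all 4 pairs printed, the capitals are few, and long runs on either side of them are shared letter for letter. Of the stretches of 50 bases in each copy, 71.48% were found unchanged in the transcripts of the active gene for Rpl34-ps1, 82.95% for Gm10020, 74.64% for Rpsa-ps10 and 76.72% for Rps3a2. The other rows that name copies of these proteins were more distant. Rpl15-ps2 had 8 differing bases of 613 (98.69% identity, 59.4% of stretches shared). Rps3a3, a further copy of Rps3a1 on chromosome 13, had 9 of 795 (98.87% identity, 49.6% of stretches shared). None of the copies whose reading frame could be followed from its first codon (Rpl34-ps1, Gm10020, Rpsa-ps10, Rps3a2 and Rps3a3) held a stop codon within it. Further annotated genes share at least one stretch of 50 bases with these transcripts: 9 with Rpl34, 23 with Rpl15, 29 with Rpsa and 9 with Rps3a1, of which 1, 2, 1 and 2 have a row in the table under a name of the same protein.

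Levels are log2 values as deposited, in which the back-transformed values of a sample sum to nearly the same total in every sample, between 1000453 and 1000891, so 2 raised to a level is an amount out of that total, given below in linear units. These totals do not show whether levels were corrected for gene length. A gene and its copy are set side by side only as shares of their sum. The lowest value in the table, the floor, is -3.16, which is 0.112 linear units. In tissue RNA, fewer cells of a type and less RNA per cell cannot be told apart. The sequencing depth is unknown, and no interval for counting error is given. All 10 telencephalon markers were above the floor in every sample, and the log2 of their summed level was 11.76 to 11.81 in wild types 1 and 2, 11.52 to 11.55 in the null samples, 11.74 to 11.85 in wild types 3 to 5 and 11.51 to 11.76 in the missense samples. Marker lists of blood, microglia, mesenchyme and endothelium were measurable as well, with none of their genes at the floor. The microglia and macrophage list of 6 genes summed to 5.62 to 5.74 in wild types 1 and 2, 6.72 in both null samples, 5.97 to 6.24 in wild types 3 to 5 and 6.35 to 6.62 in the missense samples. The mesenchyme list of 6 genes summed to 10.73 to 10.97, 11.28 to 11.72, 10.84 to 11.56 and 11.16 to 11.59 in the same order, and the endothelium list of 5 genes to 7.44 to 7.51, 7.56 to 7.97, 7.60 to 7.73 and 7.58 to 7.79. The list of 7 genes of red blood cells summed to at most 12.76 in any sample, with overlap between the groups compared. The part of these cell types in the differences below was not tested. Polr1a itself was at 5.38 and 5.38 in wild types 1 and 2 and at 4.99 and 4.82 in the null samples, and at 5.62, 5.52 and 5.64 in wild types 3 to 5 against 5.09, 5.66 and 5.79 in the missense samples.

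**Figure D1:**
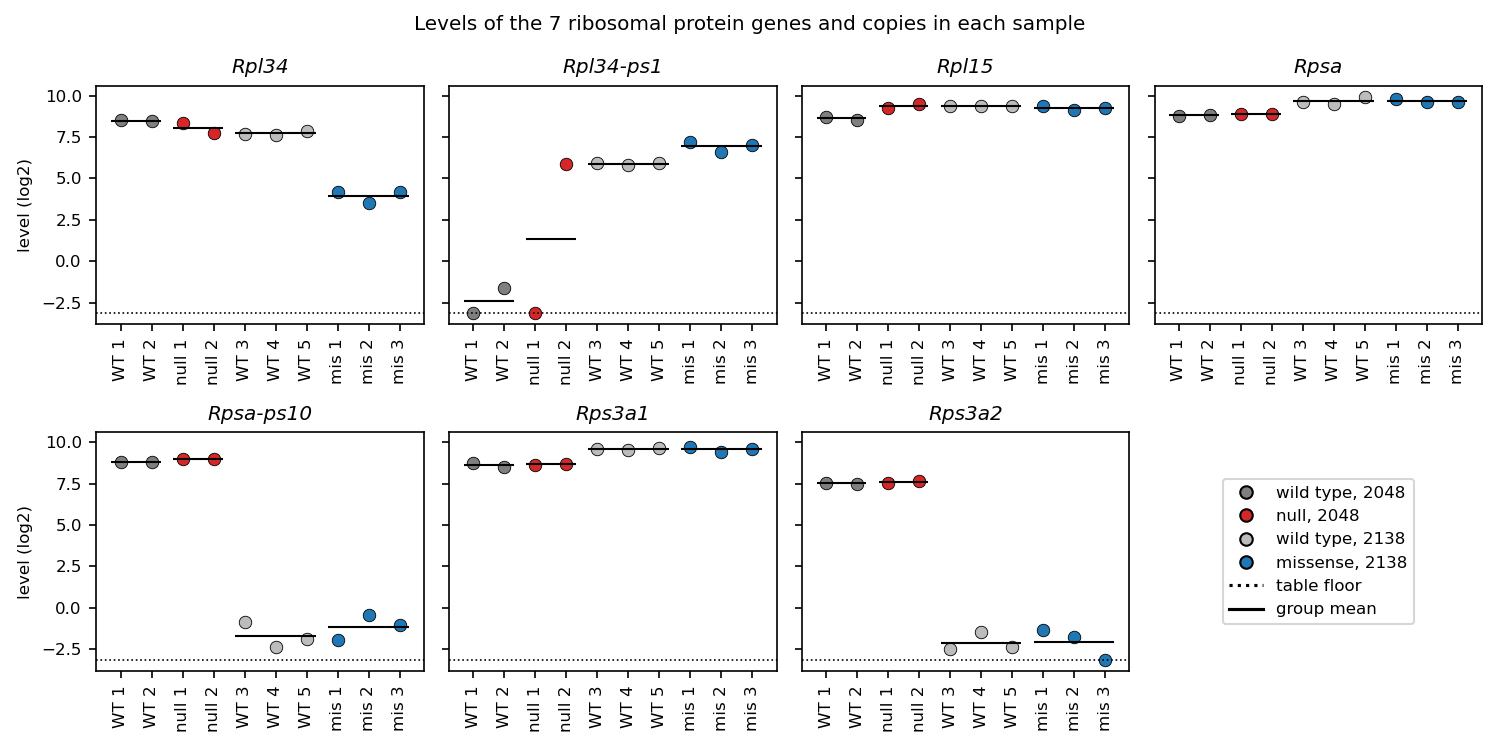
Levels of the 7 genes and copies (y axis, log2) in each of the 10 samples (x axis; WT, wild type; mis, missense), with 1 point per sample, a line at each group mean and a dotted line at the floor of -3.16. Rpl34 is lowest in the 3 missense samples, Rpl34-ps1 is near the floor in wild types 1 and 2 and null 1, and Rpsa-ps10 and Rps3a2 are near the floor in the 6 Polr_2138 samples.

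Rpl34 was lowest in the missense samples, where its copy was highest. Rpl34 was at 4.19, 3.53 and 4.16 in missense 1, 2 and 3, and at 7.71, 7.60 and 7.86 in wild types 3, 4 and 5. Every missense sample lay far below every other sample of the study, and the mean of 3.96 ± 0.38 (SD, n = 3) differed by -3.76 from the 7.72 ± 0.13 (SD, n = 3) of the wild types with the same title number, which is 0.0738 times their level on the linear scale. Rpl34-ps1 lay the other way. It was at 7.19, 6.62 and 7.01 in missense 1, 2 and 3 and at 5.91, 5.83 and 5.91 in wild types 3, 4 and 5, so that its mean was 6.94 ± 0.29 (SD, n = 3) against 5.88 ± 0.05 (SD, n = 3). That is a difference of 1.06 on the log2 scale, or 2.08-fold, and these groups did not overlap either.

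The copy took 88.9%, 89.5% and 87.8% of the summed amount of gene and copy in missense 1, 2 and 3. In wild types 3, 4 and 5 it took 22.4%, 22.7% and 20.6%. The sum itself was also lower in the missense samples: 164, 109.9 and 146 linear units, against 269, 250.2 and 292 in the wild types. On the log2 scale the means of the sum were 7.11 ± 0.30 (SD, n = 3) and 8.08 ± 0.11 (SD, n = 3), a difference of -0.97, or 0.512-fold. Adding gene and copy thus gave a smaller log2 difference than Rpl34 alone (-0.97 beside -3.76), and the groups did not overlap. Relative to the summed level of the other ribosomal protein genes of each sample, the difference in the sum was -0.85.

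Among the Polr_2048 samples, 1 null sample stood apart from the other 3. Rpl34-ps1 was at the floor of -3.16 in wild type 1 and null 1 and at -1.61 in wild type 2, but at 5.86 in null 2. Rpl34 was at 8.55 and 8.45 in wild types 1 and 2, 8.32 in null 1 and 7.75 in null 2. Null 2 therefore lay within the range of wild types 3 to 5 in both rows, and its copy share was 21.3%, against 0.0299%, 0.0933% and 0.035% in wild type 1, wild type 2 and null 1. Rpl34 averaged 8.03 ± 0.41 (SD, n = 2) with the null allele, against 8.50 ± 0.07 (SD, n = 2) in wild types 1 and 2, a difference of -0.47. It was -0.18 without null 2 and -0.75 without null 1. For Rpl34-ps1 the mean difference of 3.74 became -0.77 without null 2 and 8.24 without null 1, so its sign rests on null 2.

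Summed amounts of Rpl34 and Rpl34-ps1 were 375 and 350.3 linear units in wild types 1 and 2, 320.5 in null 1 and 273 in null 2. The log2 difference between null and wild type was -0.29 for the sum, -0.18 without null 2 and -0.41 without null 1. Wild types 3 to 5 lay 0.42 below wild types 1 and 2 in the sum and 0.78 below them in Rpl34 alone. Ordered by the mean of Rpl34, the groups ran from wild types 1 and 2 over the null samples and wild types 3 to 5 to the missense samples. The null samples and wild types 3 to 5 overlapped, with null 2 at 7.75 below wild type 5 at 7.86, and the missense samples were apart from all others.

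Rpl34-ps1 lies on the same chromosome as Polr1a, with 26 genes between them in the RefSeq gene order, of which 12 have a row in the table. A model across all 14796 genes (limma, 2-sided, Benjamini-Hochberg adjustment over all of them, called at an adjusted p under 0.05) was used for genes that the choice had not touched. It called 24 genes (0.162% of those tested) in null against wild type, 3 (0.0203%) in missense against wild type, and 14 (0.0946%) between wild types 3 to 5 and wild types 1 and 2. The comparison of wild types shares its samples with both others. None of the 12 genes between Rpl34-ps1 and Polr1a was called by limma in any of the 3 comparisons, and at an unadjusted p under 0.05 there were 0 in the null, 0 in the missense and 1 in the wild-type comparison. Their differences ran from -0.77 to 1.58 for missense and from -0.10 to 1.80 for null.

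**Figure D2:**
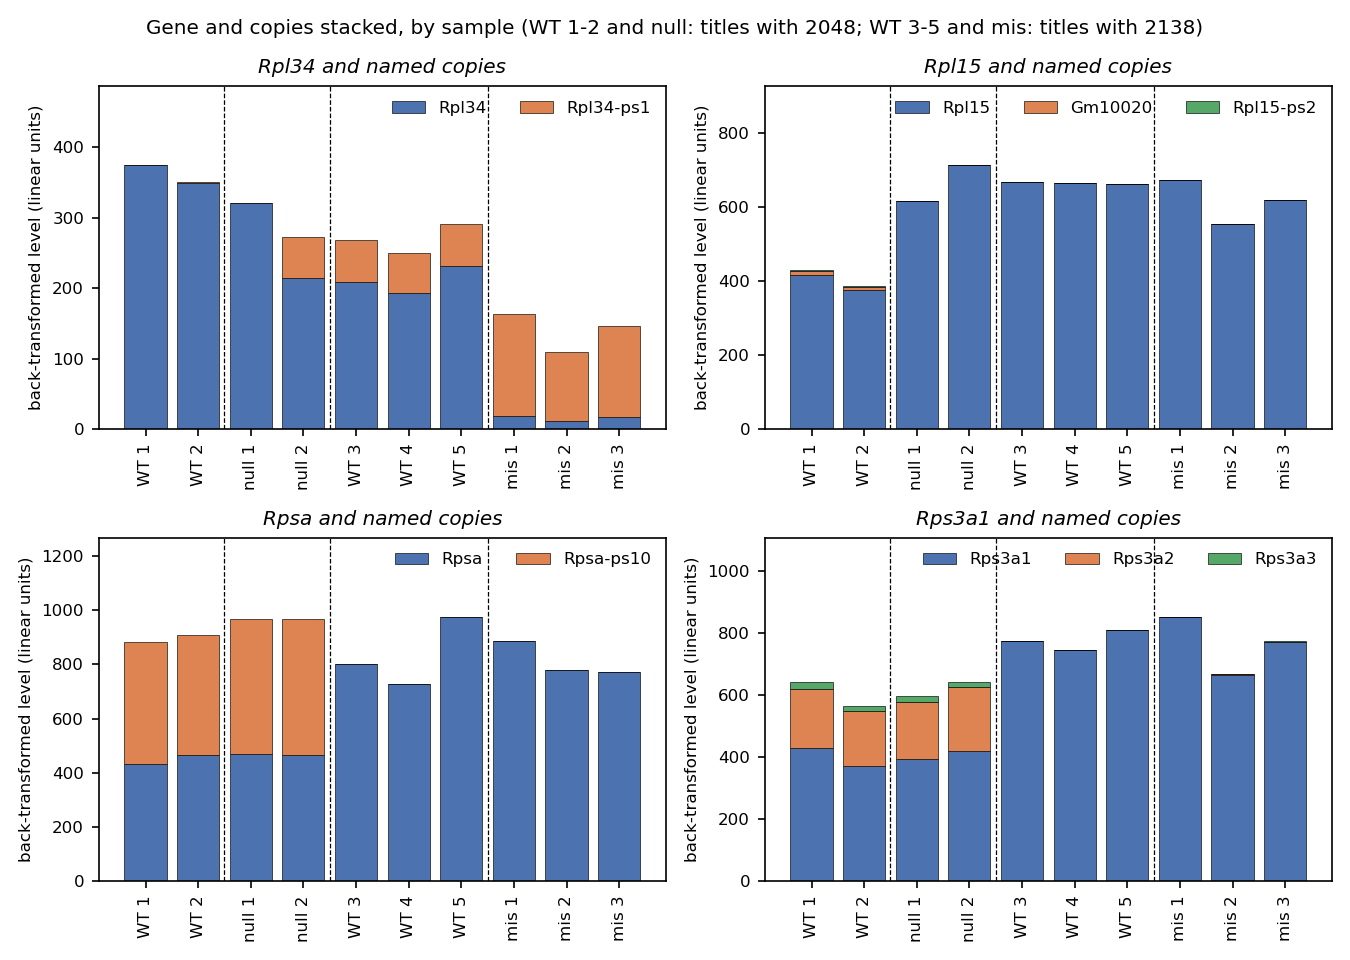
Back-transformed levels (y axis, linear units, from 0) of each active gene and its named copies, stacked, in each of the 10 samples (x axis), with dashed lines between the 4 groups. The copy of Rpl34 makes up most of the bar in the 3 missense samples, and Rpsa-ps10 and Rps3a2 contribute in the 4 Polr_2048 samples but not visibly in the other 6.

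Rpsa and Rps3a1 differed more between title numbers than between genotypes. Rpsa was at 8.75 and 8.86 in wild types 1 and 2 and at 8.88 and 8.87 in null 1 and 2, but at 9.65, 9.51 and 9.93 in wild types 3, 4 and 5 and at 9.79, 9.61 and 9.59 in missense 1, 2 and 3. All 6 Polr_2138 samples were above all 4 Polr_2048 samples. Wild types 3 to 5 exceeded wild types 1 and 2 by 0.89, or 1.85-fold (9.70 ± 0.22, SD, n = 3, against 8.81 ± 0.07, SD, n = 2). Within a title number the difference was 0.07 for null and -0.03 for missense. Missense and wild type overlapped, while the null samples lay just above both of their wild types.

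The copy Rpsa-ps10 showed the reverse. It was at 8.82 and 8.79 in wild types 1 and 2 and at 8.96 and 8.97 in null 1 and 2. In the 6 other samples it stood near the floor: -0.84, -2.37 and -1.88 in wild types 3, 4 and 5, and -1.98, -0.45 and -1.02 in missense 1, 2 and 3. No sample lay in between. The copy's share of the sum was 51.1% and 48.9% in wild types 1 and 2 and 51.4% and 51.9% in null 1 and 2. In the Polr_2138 samples it was at most 0.094%.

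Summed, Rpsa and Rpsa-ps10 came to 884 and 907 linear units in wild types 1 and 2, and to 968 and 969 in null 1 and 2. Wild types 3, 4 and 5 had 801, 729 and 977 linear units and missense 1, 2 and 3 had 886, 779.8 and 772. The sums of the 2 title numbers overlapped, and the spread over all 10 samples shrank from 1.18 for Rpsa alone to 0.42 for the sum, on the log2 scale. Between the wild types the difference in the sum was -0.11, and between missense and wild type -0.03, both with overlapping groups. The null samples, at a log2 sum of 9.92 ± 0.0017 (SD, n = 2), were above wild types 1 and 2, at 9.81 ± 0.03 (SD, n = 2), by 0.11.

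Rps3a1 had the same split. It was at 8.75 and 8.53 in wild types 1 and 2 and at 8.61 and 8.71 in null 1 and 2, against 9.59, 9.54 and 9.66 in wild types 3, 4 and 5 and 9.73, 9.38 and 9.59 in missense 1, 2 and 3. The difference between the wild types was 0.96, or 1.95-fold (9.60 ± 0.06, SD, n = 3, against 8.64 ± 0.16, SD, n = 2), and within a title number it was 0.03 for null and -0.03 for missense, with overlapping groups. Rps3a2 was at 7.56 and 7.49 in wild types 1 and 2 and at 7.53 and 7.68 in null 1 and 2. It was between -3.16 and -1.36 in the other 6 samples. Rps3a3, which is not among the 7 genes, had the same pattern: 4.48 and 4.01 in wild types 1 and 2, 4.26 and 4.21 in null 1 and 2, and the floor in the others except missense 2, at -2.22.

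Unlike for Rpsa, the split by title number was still present in the sum for Rps3a1. Rps3a2 took 30.5% to 32.8% of the sum of Rps3a1 and Rps3a2 in the 4 Polr_2048 samples, and at most 0.048% in the others. Sums were 618 and 549 linear units in wild types 1 and 2 and 577 and 624 in null 1 and 2. They were 773, 744 and 808 in wild types 3, 4 and 5 and 851, 665 and 772 in missense 1, 2 and 3. The lowest of the latter 6, missense 2 at 665, was above the highest of the former 4. The log2 difference between the wild types was 0.41 (1.33-fold) for this sum, 0.37 with Rps3a3 added, and 0.96 for Rps3a1 alone. The difference was 0.04 for null and -0.03 for missense, with overlapping groups.

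Rpl15 divided the samples in another way. It was at 8.70 and 8.56 in wild types 1 and 2, and at 9.27 and 9.48 in null 1 and 2. In wild types 3, 4 and 5 it was at 9.38, 9.38 and 9.37, and in missense 1, 2 and 3 at 9.39, 9.12 and 9.27. Wild types 1 and 2 were thus below the other 8 samples, which lay within 9.12 to 9.48. The null mean of 9.37 ± 0.15 (SD, n = 2) exceeded the 8.63 ± 0.10 (SD, n = 2) of wild types 1 and 2 by 0.74, or 1.67-fold. The missense mean of 9.26 ± 0.14 (SD, n = 3) lay 0.12 below the 9.38 ± 0.01 (SD, n = 3) of wild types 3 to 5, with overlapping groups. Wild types 3 to 5 also exceeded wild types 1 and 2, by 0.75, and null 1 was below wild types 3 to 5 and null 2 above them.

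Both copies of Rpl15 in the table were present in wild types 1 and 2 and near the floor elsewhere. Gm10020 was at 3.48 and 2.91 in wild types 1 and 2, at -1.91 and -3.16 in null 1 and 2, and between -2.27 and -1.46 in the 6 Polr_2138 samples. Rpl15-ps2 was at 1.31 and 0.94 in wild types 1 and 2 and between -3.16 and -1.83 in the other 8. The copies took 3.18% and 2.45% of the sum of all 3 rows in wild types 1 and 2 and at most 0.0935% in the rest. The sum was 430.1 and 386 linear units in wild types 1 and 2, 616 and 713 in null 1 and 2, and 555 to 674 in the other 6. Summing took the null difference from 0.74 to 0.70 and the spread over all samples from 0.92 to 0.88, so the low level in wild types 1 and 2 was not offset by these 2 rows.

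The other genes of the cytosolic ribosome were then examined with limma. They are those left after ribosomal protein genes seen to differ had been chosen. Counts and tests on them are therefore not independent of that choice, and the same holds for the further copies below. Of 80 listed genes 78 have a row, and 74 are left without Rpl34, Rpl15, Rpsa and Rps3a1: 45 of the large and 29 of the small subunit. None of the 74 was called in any of the 3 comparisons, in which 0.162%, 0.0203% and 0.0946% of all genes were called. At an unadjusted p under 0.05 there were 1 (lower) in the null, 7 (2 higher) in the missense and 2 (both lower) in the wild-type comparison, where 8.32%, 5.54% and 7.37% of all genes passed. The median log2 difference was -0.07 for null, -0.14 for missense and -0.03 between wild types, where the medians over all genes were 0.03, 0.02 and 0.02. In the missense comparison 63 of the 74 differences were below 0, and in the null comparison 52.

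The genes with the smallest p among the 74 did not pass the adjustment. In null against wild type these were Rpl13a, of the large subunit, with a difference of -0.44 (SE 0.19, limma adjusted p = 0.581), Rps25 at -0.75 and Rpl6 at 0.16. In missense against wild type they were Rpl10a at -0.31 (SE 0.10, limma adjusted p = 0.884), Rps13 at 0.85 and Rps15a at 0.61. Between the wild types they were Rps7 at -0.72 (SE 0.14, limma adjusted p = 0.231), Rpl35a at -0.84 and Rps24 at 0.22. Leaving out 1 null sample leaves a single sample in that group, so the spread between the null samples no longer enters the fit. The missense difference of Rps13, 0.85, holds no null sample, so leaving out null 1 or null 2 cannot change it. Its null difference was 1.22 without null 1 and then rests on null 2 alone. The summed level of all 74 genes ran from 14.74 to 15.24 in log2. It differed by -0.12 between missense and wild type (exact permutation test, 2-sided, p = 0.2, where 0.1 is the smallest p possible with 3 against 3). Between null and wild type it differed by -0.04 (exact permutation test, p = 1, smallest possible 0.333), a difference that was 0.18 without wild type 1 and 0.06 without null 1.

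The spread of the 4 active genes over the 10 samples can be read against the same 74 genes. Highest minus lowest log2 level was 5.02 for Rpl34, 1.21 for Rps3a1, 1.18 for Rpsa and 0.92 for Rpl15. Among the 74 genes it ran from 0.21 (Rpl4) to 6.41 (Rpl29) with a median of 0.71, beside 0.76 over all genes of the table, and exceeded 1 for 20 of them. Rpl29 alone had a wider range than Rpl34, through 1 sample, wild type 3 at 2.58, while the other 9 were at 7.67 to 8.99. Rpsa and Rps3a1 were each matched or exceeded by 15 of the 74 genes, and Rpl15 by 24. The ranges of Rpsa, Rps3a1 and Rpl15 were thus above the median of the 74 genes, but not beyond all of them. A range does not show whether samples split by group or 1 sample stood apart.

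**Figure D3:**
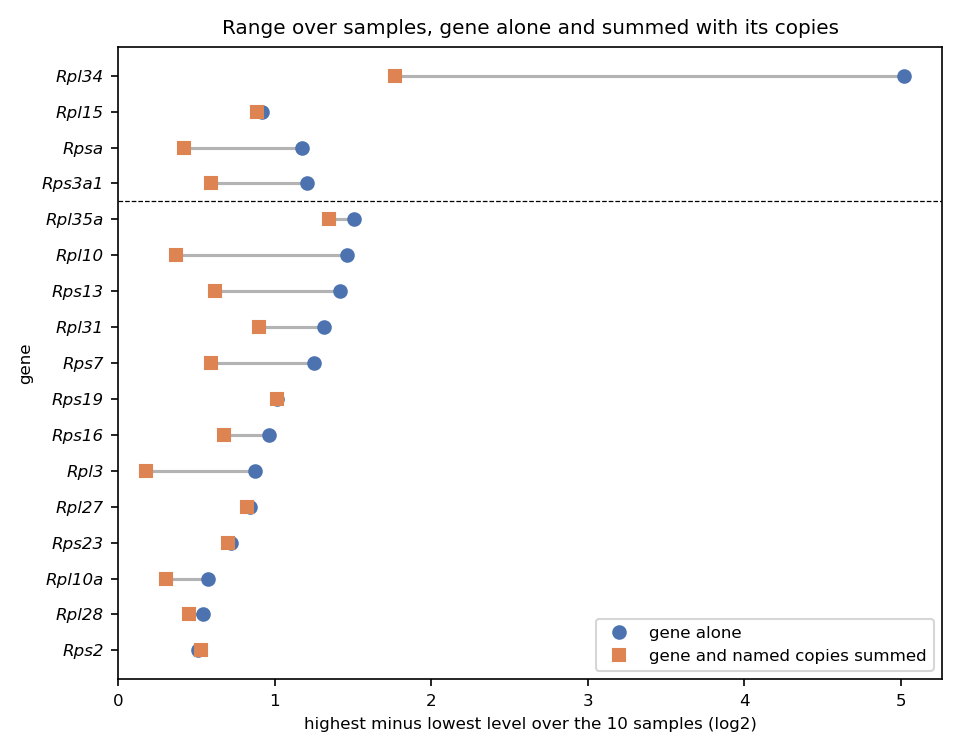
Highest minus lowest level over the 10 samples (x axis, log2) for each active gene alone (circles) and for the sum with its named copies (squares), with the 4 chosen genes above the dashed line and 13 other ribosomal protein genes below it. The range shrinks from 5.02 to 1.77 for Rpl34 and from 1.18 to 0.42 for Rpsa, but only from 0.92 to 0.88 for Rpl15.

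Copies with wide ranges were also found for other ribosomal proteins. The table holds 20 further numbered copies of ribosomal protein genes, of which 12 had a range over 5 on the log2 scale and 6 had a range under 1. Of these 12, Rpl35a-ps2, Rpl35a-ps3, Rpl35a-ps4 and Rpl35a-ps6 hold the same values in all 10 samples and count as 1 measurement. Of the 20 copies 1 was called by limma in the wild-type comparison, where 0.0946% of all genes were called: Gm6472, which RefSeq names Rps7-ps3. It was at 7.82, 7.56 and 7.71 in wild types 3, 4 and 5 and at 0.66 and 0.12 in wild types 1 and 2, a difference of 7.30 (SE 0.75, limma adjusted p = 0.00318). With robust variances its adjusted p in limma was 0.0654. Over the other settings that left more than 1 sample in each group it ran from 0.00303 to 0.0488. The null samples, at 0.53 and -3.16, were low with wild types 1 and 2, and the missense samples, at 7.70, 7.39 and 7.72, were high with wild types 3 to 5. Its parent Rps7 was at 9.17 and 9.27 in wild types 1 and 2 and at 8.51, 8.33 and 8.68 in wild types 3, 4 and 5. This is the split of Rpsa-ps10, Rps3a2 and Rps3a3 with the title numbers exchanged.

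Other copies divided the samples in still other ways. Rps13-ps1 was at 7.31 to 7.72 in the 5 wild types and null 1 and between -3.16 and 0.05 in null 2 and the 3 missense samples. These are the 4 samples in which its parent Rps13 was highest, at 7.77 to 8.28 against 6.86 to 7.21. Rpl3-ps1 was low only in wild type 4 and missense 2, at -1.77 and -0.45, and at 8.02 to 8.51 elsewhere. Rps2-ps10 was at -0.21 to 0.78 in wild type 4 and the 3 missense samples and at 6.78 to 7.43 in the other 6. None of the 20 copies was called in the null or the missense comparison by limma, where 1 and 10 of them had an unadjusted p under 0.05, beside 8.32% and 5.54% of all genes. The 10 include the 4 Rpl35a copies that hold the same values. Without null 1 the null group holds null 2 alone, and the null differences were -3.55 for Gm6472 and -9.42 for Rps13-ps1. In the missense comparison Rps13-ps1 differed by -8.80, a value that holds no null sample. Without wild type 4, Rps2-ps10 (-6.43) and Rps2-ps6 (-5.27) were called by limma in the missense comparison, and without missense 1, Rps13-ps2 (7.48). The share of all genes called in these fits is not given here.

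For 13 of the parents of these copies the table has a row. The sum of parent and copies had a smaller range over the samples than the parent alone for 12 of the 13. Rps2 was the exception at 0.53 against 0.51. Adding a steadier row narrows a log2 range by arithmetic, so this count does not show that gene and copies offset each other. Of the 6 parents with a copy whose range was over 5, the sum had the smaller range for 5. Rpl3 went from 0.87 to 0.18, Rps13 from 1.42 to 0.62 and Rps7 from 1.25 to 0.59. For Rpl27 and Rps19, whose copies varied by less than 1.5, the sum hardly differed from the gene (0.82 against 0.84, and 1.01 against 1.02). For Rpl10 and Rps16, with copy ranges of 0.51 and 0.58, the range went from 1.465 to 0.37 and from 0.96 to 0.67.

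**Figure D4:**
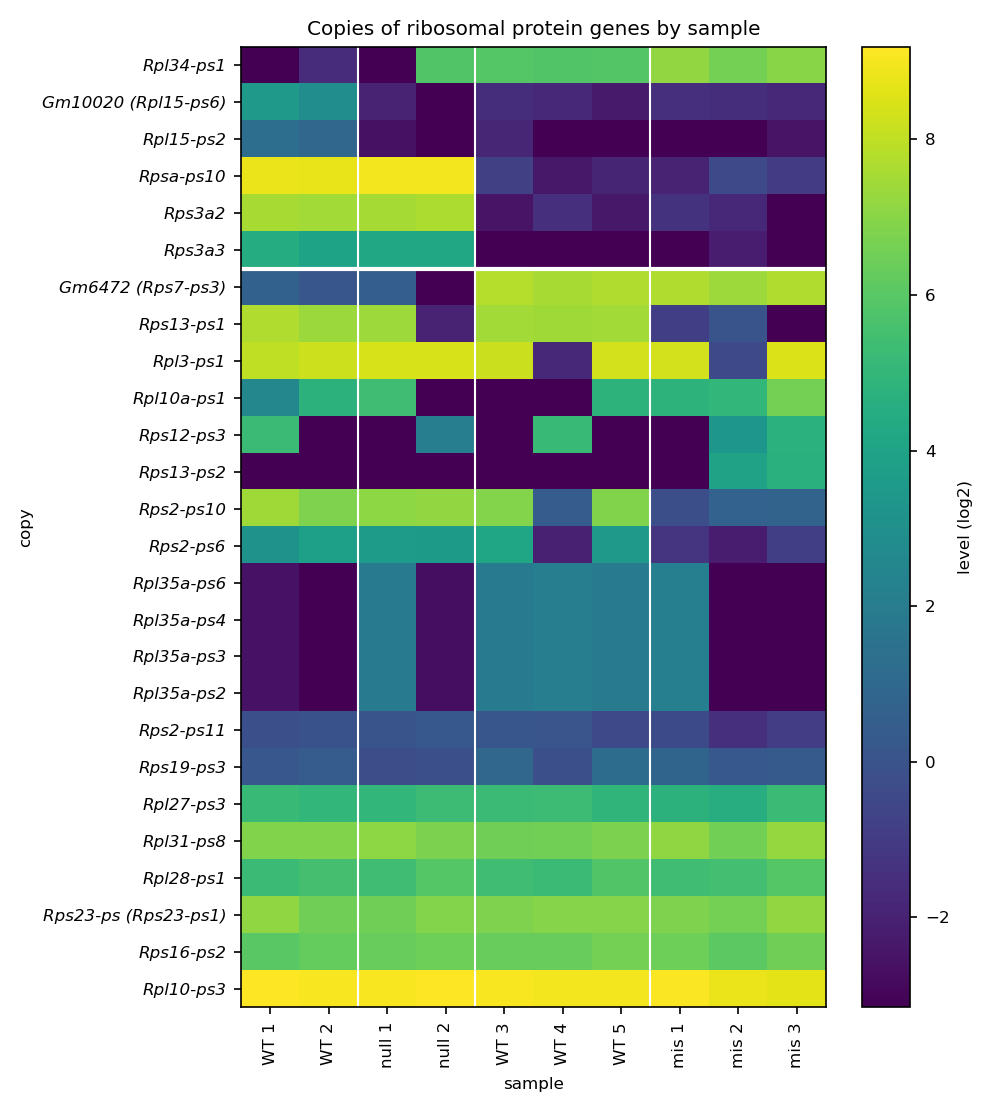
Levels (colour, log2) of 6 named copies of Rpl34, Rpl15, Rpsa and Rps3a1 (above the white line) and of 20 other numbered copies (below it, from the widest range to the narrowest) in the 10 samples (x axis), with vertical lines between the 4 groups. Rpsa-ps10, Rps3a2 and Rps3a3 are high in the first 4 samples, Gm6472 in the last 6, and Rps13-ps1 is low in null 2 and the 3 missense samples.

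The genes whose pattern over the 10 samples was most like that of each of the 7 were found by the root mean square difference of centred log2 levels, among genes with at least 0.5 times the spread. As the samples are few and share title numbers, these are descriptions. Rpsa-ps10 and Rps3a2, on different chromosomes, were each nearest to the other (0.93, where the pattern's own root mean square was 5.08 and 4.76), followed by Rps3a3. For both, Gm6472 was nearest to the mirrored pattern (1.54 and 1.3). Rpsa was nearest to Zfp804a (0.09, own value 0.43) and Mapt, which encodes the neuronal protein tau (0.13). Mapt was at 7.33, 7.09, 7.49 and 7.39 in wild type 1, null 1, wild type 2 and null 2 and at 8.001 to 8.458 in the other 6. Rps3a1 was nearest to Rpsa (0.13), and to the mirrored pattern of Phgdh, an enzyme of serine synthesis (0.11), which was at 7.41 to 7.60 in the Polr_2048 samples and at 6.58 to 6.76 in the others. Mapt and Phgdh, which have no ribosomal role, thus split by title number too. They were picked for closeness to such a pattern, and how many of all genes split so was not counted.

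The patterns of the other 3 were followed less closely. Rpl15 was nearest to 2700060E02Rik (0.14, own value 0.30) and Fam84b, and to the mirrored patterns of Ncoa6 and Sh2b2. Rpl34-ps1 was nearest to Myof (2.19, own value 4.16), which was at or near the floor in wild type 1, null 1 and wild type 2 (-3.16, -3.16 and -0.20) and at 1.20 to 3.05 in the other 7. Rpl34 was nearest to Frrs1 (0.97, own value 1.90). The 2 genes nearest to the mirrored pattern of Rpl34 were at 1.07 and 1.17. The measure keeps the size of a pattern, and Rpl34-ps1 (own value 4.16) varied far more than Rpl34. It could therefore not be among these 2 genes, whatever the shape of its pattern.

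Genes next to the 7 on their chromosomes were tested as well, 5 with a row on each side. None of these 70 neighbours was called by limma in any comparison, and at an unadjusted p under 0.05 there were 10 (7 higher) for null, 5 (2 higher) for missense and 6 (6 higher) between wild types, where 8.32%, 5.54% and 7.37% of all genes passed. The smallest p beside Rpsa belonged to Cx3cr1, a receptor of microglia, at 0.98 in the null comparison (SE 0.19, limma adjusted p = 0.108). The microglia list, which was also higher in both null samples, holds Cx3cr1 itself. Beside Rpl34 the smallest p was that of Lef1, a transcription factor of Wnt signalling, at 0.47 in the null comparison (SE 0.11, limma adjusted p = 0.19). Beside Rpsa-ps10, Rpl15, Rps3a1 and Rps3a2 the smallest were Ifi44 (null, 1.71), Gm2237 (wild types, 0.73), Kirrel (missense, 0.31) and Pcdh8 (wild types, 0.46), with adjusted p in limma from 0.547 to 0.884.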

How the data were processed

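Total RNA of 10 telencephalon samples had been sequenced. The authors deposited log2 values per gene and sample in a single table, filtered and normalized per its name. The unit was read from the values, whose back-transformed sums are 1000453 to 1000891 in every sample, and depth is unknown. The build is GRCm39, per the submitters' processing notes. Which aligner, read counter and gene models were used is not given in the sources used here. Of the rows, 14796 have a gene name, and 1 without a name was left out.

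Samples were grouped by genotype and title number, and wild types are numbered in the order of the labels. The 4 groups entered a linear model in limma 3.58.1 in R 4.3.3 (tables read with data.table, version 1.17.8), with variances following a trend on the level, 6 residual and 4.83 prior degrees of freedom, 2-sided tests and Benjamini-Hochberg adjustment over all 14796 genes. It was tested on simulated data. The p-values measure only the spread between these samples. Sums are of back-transformed values. Members, lists and rules were chosen with earlier results of these data known. All 7 chosen genes, all rows naming copies of the same proteins, called genes (or the 3 with the smallest p among other ribosomal protein genes, and the smallest p among the neighbours of each chosen gene) and the 2 genes nearest in pattern were named; copies and genes chosen after their values were seen are Rpl29, Rpl3-ps1, Rps13-ps1, Rps13-ps2, Rps2-ps10, Rps2-ps6, the Rpl35a copies and the parents given. Values of some genes that meet these rules are not reported here. Gene order came from RefSeq, in which 98.5% of rows matched, and sequences from GENCODE M21 (GRCm38), aligned with Biopython 1.88; stretches of 50 bases were compared letter for letter. Alternatives were no title-number term, median centring, quantile normalization, robust variances, no variance trend, leaving out genes under the 25th percentile of mean level, subtraction of the floor, a pseudocount of 1, levels relative to other ribosomal protein genes, summing all named copies, the median in place of the sum, and leaving out each sample. Python 3.11.15, pandas 2.3.3, numpy 2.4.6 and matplotlib 3.10.9 were used.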

Additional observations from a re-analysis of the deposited data

Results flagged for a closer look

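Among the 5 wild types, 1 sample stood apart from the other 4 by Dixon's criterion for 6 of 54 values examined. Chance gives about 1 in 20 for values not picked by their levels. Rpl29, Rpl3-ps1, Rps2-ps10 and Rps2-ps6 were chosen after their values were seen, so the count cannot be compared with that share. Wild type 3 was apart for Rpl29, at 2.58, with the others at 7.87 to 8.98. Wild type 4 was apart for the copies Rpl3-ps1, at -1.77 with the others at 8.02 to 8.35, Rps2-ps10, at 0.45 with the others at 6.78 to 7.43, and Rps2-ps6, at -2.01 with the others at 3.16 to 4.09. Wild type 1 was apart for Rps25, at 5.41 with the others at 4.27 to 4.58, and for Rps19, at 9.20 with the others at 8.39 to 8.58.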

How the results depend on the processing

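Setting each mutant against all 5 wild types moved most of the values, because wild types of different title numbers differ in these genes. The log2 difference of Rpl34 in null then became 0.00327 and that of Rpsa -0.47, and the difference of Rpl15 without its copies became 0.29 in null and 0.18 in missense. Moves were widest for the copies: in null Rpl34-ps1 became -1.23, Rpsa-ps10 6.46 and Rps3a2 5.86, and in missense they became 4.36, -3.65 and -3.83. Rps3a1 became -0.55 in null and 0.35 in missense, and Rpsa 0.32 in missense. For sums of gene and copy, the null difference became -0.0383 for Rpl34, 0.18 for Rpsa and -0.20 for Rps3a1, and the missense difference 0.14 for Rps3a1. The null difference in the Rpsa sum was 0.0796 with median centring, 0.15 with quantile normalization and 0.16 relative to the other ribosomal protein genes. The missense difference of Rpl15 without its copies, relative to those genes, was -0.0014. Leaving out each sample in turn, the difference between wild types ran from 0.68 to 0.82 for Rpl15 without its copies and from 0.33 to 0.50 for the Rps3a1 sum. The null difference of the summed level of the other ribosomal protein genes ran from -0.26 to 0.18 and was above 0 without wild type 1 or null 1. When a Polr_2138 sample was left out, calls among the 74 other ribosomal protein genes stayed at 0 in the null and missense comparisons. Calls among the 20 other copies stayed at 0 in the null and ran from 0 to 2 in the missense comparison. Leaving out a Polr_2048 sample leaves 1 sample in its group, so calls of those fits are not given. With robust variances 0 of these copies were called between wild types. Of the other values under alternatives, 272 of the summed values and counts and 252 of the single-gene levels and copy shares were counted as unchanged. They moved by less than the spread between replicates or, for counts, by at most 1.5 times. For the sum of other ribosomal protein genes only the sign had to hold. Where replicates differ widely this rule passes large moves: the null difference of Rpl34-ps1 (3.74) was counted as unchanged at -0.77 and at 8.24. The tally therefore does not measure stability. No paired analysis was possible because the labels give replicates no numbers that pair them across groups. Depth, not given, limits what can be said of levels near the floor.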
